A study of Homo sapiens with 42 samples.

Results

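The comparison described here set the mRNA of K562 cells after 18 h of imatinib (IM 18h) against that after 6 h (IM 6h). Its members were chosen by their labels alone, as the 3 IM 18h and the 3 IM 6h mRNA libraries, 6 of the 42 libraries of the series. K562 is an established cell line from a chronic myeloid leukaemia in blast crisis, which carries the BCR-ABL1 fusion and holds erythroid and some megakaryocytic traits. All 6 libraries came from this 1 line at 1 µM imatinib, and the same study grew untreated cells (CTRL), cells at 1 h of imatinib (IM 1h) and cells at 5 µM JTE-607, an inhibitor of the 3′-end endonuclease CPSF73, for matched times. Cells in 110 mM KCl were a further arm, whose libraries entered the fit but no comparison here. RNA was poly(A)-selected from whole cells and sequenced in pairs. A second set of libraries held nuclear RNA, among them IM 1h and IM 18h. The treatments were repeated as separate experiments, 3 per group, and all values in a group are given in the order of replicates 1, 2 and 3.

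BCR-ABL1 is a constitutively active tyrosine kinase that drives cell growth and survival through STAT5, RAS-ERK and PI3K signalling and keeps MYC and its ribosome-building programme high. Imatinib occupies the ATP site of the kinase. K562 cells respond to a range of agents by turning up erythroid genes, of which the globins form the protein of haemoglobin, the haem pathway makes its iron-bearing group, and the membrane genes build the skeleton and surface antigens of the red cell. GATA1, TAL1 and KLF1 are the transcription factors best known for switching these genes on, and GATA2 is held higher in progenitors.

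The 6 libraries held 17661189 to 18420740 counts at 18 h and 17578358 to 22054838 at 6 h. Levels are given as CPM, the counts per 1000000 of the library size after scaling by the trimmed mean of M-values (TMM). CPM of different genes are not compared since they do not allow for length. Summed over 11 markers of K562 and erythroleukaemia cells, the level was 4680 to 7210 CPM at 6 h and 8870 to 11900 CPM at 18 h, with no marker at 0. The 8 lymphocyte markers summed to 3.03 to 4.46 CPM at 6 h and 1.68 to 2.48 CPM at 18 h, with CD2, MS4A1 and CD79B at 0 in both groups, and the 8 monocyte and granulocyte markers to 5.3 to 9.63 and 3.53 to 7.87 CPM. CD3D, a T cell receptor subunit, was called lower at 1.47, 0.608 and 0.88 CPM at 6 h and 0.271, 0.0526 and 0.165 CPM at 18 h. The 8 markers of fibroblasts and epithelium summed to 91.6 to 106 CPM at 6 h and 86.7 to 91.4 CPM at 18 h, nearly all of it EPCAM, with KRT5 and KRT14 at 0. The mitochondrial share of counts was 9.86% to 11.7% at 6 h and 12.5% to 12.7% at 18 h, and its part in the results was not tested.

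One library at each time stood apart from its group in many of the genes that changed. IM 6h replicate 3 was the highest of the 6 h libraries in 25 of 25 tested genes of the red cell membrane, in 13 of 14 haem synthesis genes and in 7 of 10 globin genes, against 39.5% of all genes tested. IM 18h replicate 1 was the highest of the 18 h libraries in 22 of 25, 12 of 14 and 10 of 10 of these genes, against 35.0% of all genes. This was not particular to erythroid genes: over the 448 genes called higher the same libraries were the highest of their time in 89.1% and 67.9%, and over the 350 called lower they were the lowest in 66.9% and 67.7%. Counts of calls that moved without 1 of these libraries are given with both values.

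Between 6 and 18 h of imatinib, 448 genes rose and 350 fell among 18095 tested, by edgeR. A call needed an adjusted p below 0.05 and a change of more than 0.6 on the log2 scale. These calls were 4.41% of the genes tested, 2.48% higher and 1.93% lower at 18 h. An unadjusted p under 0.05 was reached by 4380 of the 18095 genes tested. Counts at that level in the lists below are to be read beside this share. The median log2 fold change of all genes was 0.0016, so that the TMM scaling left no shift common to all genes. The rises had a median log2 fold change of 1.004 and 225 of them were beyond 1, while the falls had a median size of 0.865 with 121 beyond 1. The 3 libraries of each time did not overlap in 425 of the 448 rises and 333 of the 350 falls. Over all genes tested, 15% had the 18 h libraries wholly above the 6 h libraries and 14.7% wholly below. Protein-coding genes made up 318 of the rises and 295 of the falls, and long non-coding RNAs 91 and 19. With library totals in place of TMM the calls were 396 higher and 416 lower, so the excess of rises over falls depended on the scaling. Falls were also the more numerous with no fold threshold (662 higher and 848 lower) and with no low-count filter (576 and 637). The number of calls depended on single libraries: it was 1474 without IM 6h replicate 3 and 220 when replicate 1 of 18 h was left out. It was 182 without replicate 1 of 6 h and 272 without replicate 2 of 6 h. In these last 3 fits falls outnumbered rises, by 115 to 105, 117 to 65 and 177 to 95, and they did so narrowly without IM 18h replicate 3, by 357 to 345.

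**Figure D1:**
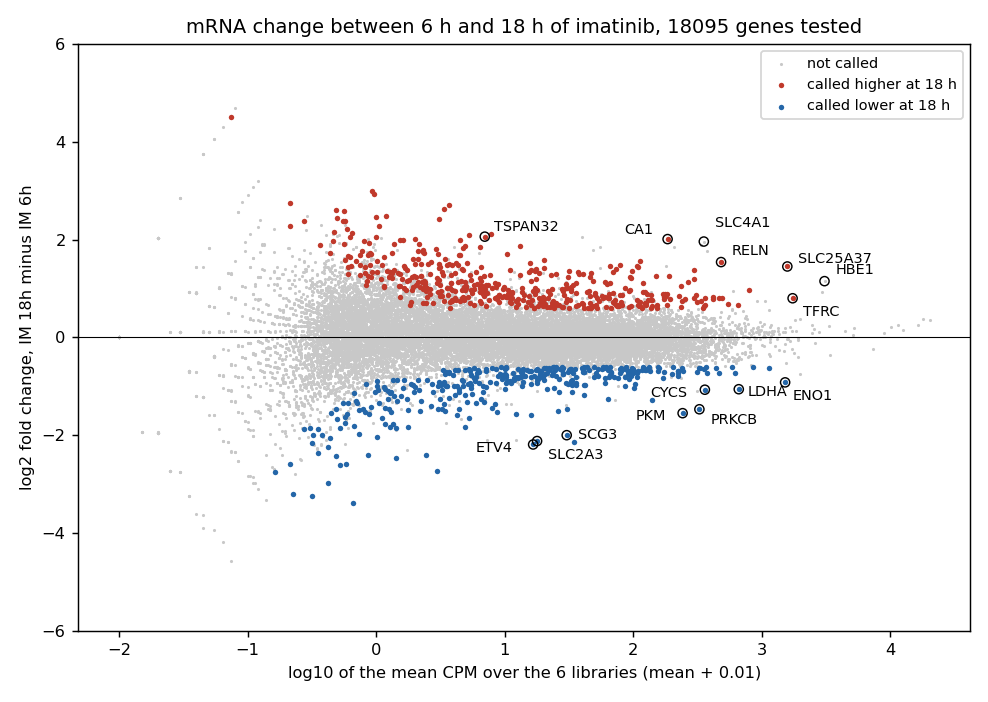
Log2 fold change of IM 18h over IM 6h mRNA (y axis) against the mean CPM of the 6 libraries (x axis, log10 scale, 0.01 added) for the 18095 genes tested, 1 point per gene. Coloured points are the 448 genes called higher and the 350 called lower; TSPAN32, CA1 and RELN lie among the largest rises and ETV4, SLC2A3 and SCG3 among the largest falls.

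The largest rises among called genes at 10 CPM or more in the higher group, without overlap between the times, were led by TSPAN32 and CA1. TSPAN32 (chr11:2301997-2318200, plus strand, positions in GRCh38), a tetraspanin of blood cells, measured 1.51, 2.48 and 4.18 CPM at 6 h and 9.83, 13.1 and 10.9 CPM at 18 h. All 18 h libraries were above all 6 h libraries. For TSPAN32 the log2 change was 2.06 (SE 0.37, edgeR adjusted p = 0.00181). CA1, the carbonic anhydrase abundant in red cells, measured 39.9, 32 and 150 CPM at 6 h and 347, 304 and 236 CPM at 18 h. The groups did not overlap, with IM 6h replicate 3 the closest to the 18 h libraries. For CA1 the log2 change was 2.01 (SE 0.52, edgeR adjusted p = 0.0233). RELN (chr7:103471784-103989516, minus strand), a large secreted glycoprotein, measured 162, 158 and 420 CPM at 6 h and 749, 570 and 831 CPM at 18 h, with no overlap. For RELN the log2 change was 1.54 (SE 0.24, edgeR adjusted p = 0.000764). DYSF, the membrane-repair protein dysferlin, measured 5.69, 4.51 and 14.1 CPM at 6 h and 26.3, 20.3 and 22.8 CPM at 18 h and also did not overlap. For DYSF the log2 change was 1.52 (SE 0.29, edgeR adjusted p = 0.00298). The other 6 were HEPACAM2, ACSS1, the mitochondrial acetyl-CoA synthetase, ARHGAP23, a GTPase-activating protein, TNS1, the focal adhesion protein tensin, ARRDC4, an arrestin-domain protein and paralog of TXNIP, and RHCE, with log2 fold changes of 1.84, 1.70, 1.59, 1.56, 1.49 and 1.47. TSPAN32, RELN and DYSF were called whichever of the 6 libraries was left out. The other 7 lost the call in each fit without replicate 1 or 2 of 6 h or replicate 1 of 18 h. The edgeR adjusted p of CA1 was 0.146, 0.129 and 0.101 in these fits. CA1 and TNS1 also lost the call without replicate 2 of 18 h, and ACSS1 without replicate 3 of 18 h. HEPACAM2 lost it whichever library was left out.

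All 10 globin genes had fold changes above 0 at 18 h, but only 2 of them, HBA1 and HBQ1, were called. The median log2 fold change of the list was 1.04, beside 0.0016 for all genes. HBA1 (chr16:176680-177522, plus strand), 1 of the pair of α-globin genes, measured 89.2, 104 and 145 CPM at 6 h and 353, 228 and 225 CPM at 18 h. All 18 h libraries were above the 6 h libraries. For HBA1 the log2 change was 1.25 (SE 0.35, edgeR adjusted p = 0.0296). HBQ1, the θ-globin gene, was low and tight at 5.56, 6.89 and 6.44 CPM at 6 h and 11.4, 10.7 and 11.2 CPM at 18 h. For HBQ1 the log2 change was 0.82 (SE 0.18, edgeR adjusted p = 0.00749). HBZ, the embryonic ζ chain, measured 111, 109 and 291 CPM at 6 h and 707, 502 and 532 CPM at 18 h, and HBE1, the embryonic ε chain, 1720, 1300 and 2690 CPM at 6 h and 5520, 3790 and 3390 CPM at 18 h. Neither overlapped between the times and neither was called, HBZ at 1.77 with an edgeR adjusted p = 0.0545 and HBE1 at 1.15 with an edgeR adjusted p = 0.0667. Without IM 6h replicate 3, 6 of the 10 globin genes were called and HBZ stood at 2.40, edgeR adjusted p = 0.0196, while 1 was called without replicate 2 of 6 h or replicate 1 or 2 of 18 h, and none without IM 6h replicate 1. DESeq2 called 7 of the 10. Reads shared by HBA1 and HBA2, or by HBG1 and HBG2, were not counted, so the split within each pair is uncertain. In bulk RNA, fewer cells carrying a transcript and less of it per cell cannot be told apart, which holds for all values here.

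Haem synthesis genes were called higher in 6 of 14 cases and lower in 1, with a median log2 fold change of 0.80. SLC25A37, the mitochondrial iron importer mitoferrin-1, measured 515, 472 and 1550 CPM at 6 h and 2980, 2000 and 1940 CPM at 18 h. IM 6h replicate 3 lay between the other 6 h libraries and the 18 h libraries, and the groups did not overlap. For SLC25A37 the log2 change was 1.45 (SE 0.28, edgeR adjusted p = 0.0034). PPOX, the penultimate enzyme of the pathway, measured 41.1, 56.3 and 70.8 CPM at 6 h and 140, 135 and 121 CPM at 18 h and ALAD, which forms porphobilinogen, 43.6, 47.8 and 80.6 CPM at 6 h and 147, 94.7 and 105 CPM at 18 h. Both rose without overlap, PPOX by 1.24 (edgeR adjusted p = 0.0141) and ALAD by 1.01 (edgeR adjusted p = 0.00449) on the log2 scale. FECH, which inserts the iron, and the mitochondrial transporter ABCB10 were also called higher, and for ABCB10 the highest 6 h library (354 CPM) was above the lowest 18 h library (336 CPM). The 1 fall was ALAS1, the housekeeping form of the first enzyme, at -0.62 on the log2 scale. ALAS2, the erythroid form of that enzyme (chrX:55009055-55031064, minus strand), measured 59.9, 92.9 and 279 CPM at 6 h and 655, 482 and 452 CPM at 18 h. Its groups did not overlap, but IM 6h replicate 3 stood well above the other 6 h libraries and the gene was not called. For ALAS2 the log2 change was 1.88 (SE 0.59, edgeR adjusted p = 0.0533). Without that library it was at 2.79, edgeR adjusted p = 0.00852. Over the list the calls were 9 higher and 1 lower without IM 6h replicate 3. They were 1 and 1 when replicate 1 of 18 h was left out, and 2 and 0 when either replicate 1 or replicate 2 of 6 h was. SLC25A37 was called in each of these fits.

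The genes of the red cell membrane and surface gave the most calls of the erythroid lists. Of 25 tested, 13 were called higher and none lower, and 24 had a log2 fold change above 0, with a median of 0.78. The spectrin SPTB, the adducin ADD2 and dematin (DMTN) belong to the membrane skeleton, GYPB and GYPC are glycophorins, RHD and RHCE carry Rh antigens, KEL and XK form the Kell complex, ERMAP carries the Scianna antigens and AQP1 is the water channel. DMTN measured 27.9, 26 and 68 CPM at 6 h and 123, 103 and 96.1 CPM at 18 h with no overlap. For DMTN the log2 change was 1.40 (SE 0.27, edgeR adjusted p = 0.00298). GYPB (chr4:143996104-144019345, minus strand) measured 42.3, 30.5 and 98.6 CPM at 6 h and 204, 126 and 140 CPM at 18 h. For GYPB the log2 change was 1.46 (SE 0.31, edgeR adjusted p = 0.00669). RHCE (chr1:25362249-25430192, minus strand) measured 24.4, 17.1 and 64.2 CPM at 6 h and 142, 77.9 and 72.7 CPM at 18 h (edgeR log2 change 1.47, SE 0.35, adjusted p = 0.0126), and its neighbour RHD (chr1:25272393-25330445, plus strand) 41.8, 25.3 and 99.2 CPM at 6 h and 187, 123 and 114 CPM at 18 h. For RHD the log2 change was 1.35 (SE 0.30, edgeR adjusted p = 0.00913). In all of these IM 6h replicate 3 was the highest 6 h library and still below every 18 h library. RHD and RHCE are close copies of each other and GYPB belongs to a family of close copies, and reads shared by copies were not counted, so their separate levels are uncertain.

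SLC4A1, the anion exchanger band 3 that anchors the membrane skeleton (chr17:44248385-44268141, minus strand), had libraries far apart at 6 h. It measured 7.46, 14.3 and 413 CPM at 6 h and 1030, 374 and 285 CPM at 18 h. At 6 h replicate 3 was far above replicates 1 and 2 and above 2 of the 18 h libraries, so that the groups overlapped and the gene was not called. For SLC4A1 the log2 change was 1.96 (SE 1.01, edgeR adjusted p = 0.246). Without IM 6h replicate 3 the log2 fold change was 5.69, edgeR adjusted p = 0.000718. ESPN, the actin-bundling protein espin, had a like spread, at 2.5, 4.1 and 40.4 CPM at 6 h and 99.7, 54.9 and 38.1 CPM at 18 h (edgeR log2 change 2.05, SE 0.70, adjusted p = 0.0764), and at 4.28, edgeR adjusted p = 0.000115 without that library. Over the whole membrane list, 18 genes were called higher without IM 6h replicate 3 and 2 when replicate 1 of 18 h was left out. Without replicate 2 or replicate 1 of 6 h there were 6 and 1, and the median lay between 0.64 and 0.95. With only the groups compared in the fit, 6 of the 25 were called, DMTN, GYPB, RHD and RHCE not among them, and 2 of the 14 haem genes were called higher, SLC25A37 not among them.

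**Figure D2:**
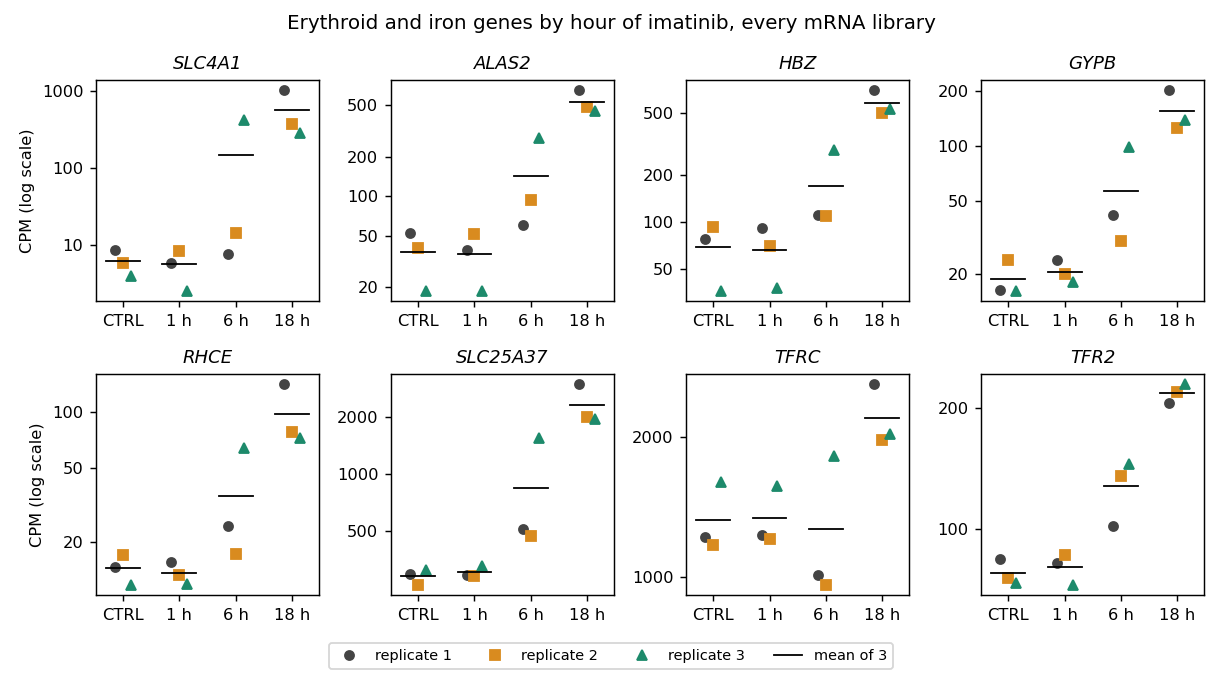
CPM in each mRNA library (y axis, log scale) of SLC4A1, ALAS2, HBZ, GYPB, RHCE, SLC25A37, TFRC and TFR2 for CTRL and 1, 6 and 18 h of imatinib (x axis), 1 point per replicate and a bar at the mean of 3. IM 6h replicate 3 lies above the other 6 h replicates in all 8 panels, most widely for SLC4A1 at 413 CPM beside 7.46 and 14.3 CPM, and the 3 replicates of TFR2 lie closest together.

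GATA factors bind the letters AGATAA, in which the first may also be T and the last also G, and the promoters were read for these letters on both strands. The window ran from 250 bases before to 50 bases after the RefSeq start. These letters were in 12 of the 19 membrane list members that had a promoter entry (63.2%), in 2 of 11 haem genes (18.2%) and in 25.5% of all 27305 promoters. The promoters of RHCE, RHD, GYPB and ALAS2 are shown as those of 3 surface antigen genes that rose and of the erythroid form of the first haem enzyme, with the matched letters in capitals (RefSeq, GRCh38.p14): RHCE at chr1:25420886-25421185 on the minus strand, RHD at chr1:25272236-25272535 on the plus strand, GYPB at chr4:144019331-144019630 on the minus strand and ALAS2 at chrX:55030928-55031227 on the minus strand.
RHCE: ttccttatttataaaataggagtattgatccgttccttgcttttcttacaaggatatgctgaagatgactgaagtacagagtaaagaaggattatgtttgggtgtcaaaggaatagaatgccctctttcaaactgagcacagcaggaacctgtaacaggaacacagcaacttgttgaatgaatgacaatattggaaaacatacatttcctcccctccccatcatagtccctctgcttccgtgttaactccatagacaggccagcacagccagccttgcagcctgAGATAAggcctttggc
RHD: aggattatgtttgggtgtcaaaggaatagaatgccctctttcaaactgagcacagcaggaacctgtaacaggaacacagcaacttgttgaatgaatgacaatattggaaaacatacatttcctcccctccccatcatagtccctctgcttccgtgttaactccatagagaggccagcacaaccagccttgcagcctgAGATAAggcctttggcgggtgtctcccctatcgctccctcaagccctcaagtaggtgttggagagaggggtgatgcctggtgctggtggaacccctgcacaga
GYPB: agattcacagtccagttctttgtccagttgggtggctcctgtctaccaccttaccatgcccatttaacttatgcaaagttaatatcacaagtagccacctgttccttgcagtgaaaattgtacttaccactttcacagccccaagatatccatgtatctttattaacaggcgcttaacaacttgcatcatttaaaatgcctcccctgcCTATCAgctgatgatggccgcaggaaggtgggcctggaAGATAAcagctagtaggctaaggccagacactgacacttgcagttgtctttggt
ALAS2: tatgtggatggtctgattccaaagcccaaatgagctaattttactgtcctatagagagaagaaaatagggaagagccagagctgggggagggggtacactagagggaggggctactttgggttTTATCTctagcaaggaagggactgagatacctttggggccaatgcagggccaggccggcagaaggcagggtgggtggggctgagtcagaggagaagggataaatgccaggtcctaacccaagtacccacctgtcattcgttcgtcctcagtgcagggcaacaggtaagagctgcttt
The RHCE and RHD windows share an unbroken run of 168 bases that includes the match, and GYPB holds 2 matches, 1 on each strand. The windows shown all hold a match and are not a sample of the lists. Those of ABCB10, ALAD and PPOX, haem genes called higher, held none, and ALAS2 was not called. A match in these letters is a description of the sequence and not a measured site.

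Iron handling genes were called higher in 3 of 16 cases and lower in none, with a median of 0.09. TFRC, the transferrin receptor (chr3:196027183-196082189, minus strand), measured 1010, 961 and 1820 CPM at 6 h and 2610, 1970 and 2030 CPM at 18 h, with no IM 6h library above the lowest 18 h library. For TFRC the log2 change was 0.80 (SE 0.19, edgeR adjusted p = 0.012). TFR2, its iron-sensing paralog, measured 102, 136 and 145 CPM at 6 h and 206, 219 and 230 CPM at 18 h, with no overlap. For TFR2 the log2 change was 0.78 (SE 0.11, edgeR adjusted p = 0.000282). SLC11A2, the iron transporter DMT1, rose by 0.62 (edgeR adjusted p = 0.0185). FTH1, the ferritin heavy chain, measured 193, 268 and 231 CPM at 6 h and 286, 272 and 284 CPM at 18 h and was not called (0.28, edgeR adjusted p = 0.455). HMOX1, the haem oxygenase that breaks haem down, was at 0 to 0.11 CPM in the 6 libraries and too low to test. The list had 5 calls without IM 6h replicate 3 and 1 when replicate 1 of 18 h was left out. TFR2 was called in each fit that left out a library, whereas TFRC and SLC11A2 lost the call without IM 6h replicate 1 (edgeR adjusted p = 0.097 and 0.123). The same held without replicate 2 of 6 h (edgeR adjusted p = 0.0834 and 0.106) or replicate 1 of 18 h (edgeR adjusted p = 0.0964 and 0.109).

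Of 16 tested transcription factors of erythroid cells and progenitors, 1 rose and 1 fell. TAL1, a basic helix-loop-helix factor of the erythroid programme, measured 199, 305 and 327 CPM at 6 h and 463, 410 and 394 CPM at 18 h, each 18 h library above each 6 h library. For TAL1 the log2 change was 0.61 (SE 0.14, edgeR adjusted p = 0.00892). GATA2, the progenitor GATA factor (chr3:128479427-128493185, minus strand), measured 93.8, 62.4 and 75.5 CPM at 6 h and 33.9, 48.1 and 47.5 CPM at 18 h and fell without overlap. For GATA2 the log2 change was -0.84 (SE 0.17, edgeR adjusted p = 0.00333). GATA1 measured 149, 126 and 152 CPM at 6 h and 140, 135 and 156 CPM at 18 h, with the groups interleaved. For GATA1 the log2 change was 0.02 (SE 0.15, edgeR adjusted p = 0.97). KLF1 measured 119, 155 and 154 CPM at 6 h and 196, 166 and 193 CPM at 18 h, not overlapping but not called (edgeR log2 change 0.37, SE 0.14, adjusted p = 0.1), and MYB, a progenitor factor, 165, 82.2 and 127 CPM at 6 h and 56.8, 74.8 and 102 CPM at 18 h with overlap. For MYB the log2 change was -0.68 (SE 0.24, edgeR adjusted p = 0.0806). The call of GATA2 held without each library, while that of TAL1 was lost without IM 18h replicate 1 (0.54, edgeR adjusted p = 0.069) and without IM 6h replicate 1 (0.42, edgeR adjusted p = 0.101). MYB was called without IM 18h replicate 3 (-0.92, edgeR adjusted p = 0.0375) and without IM 6h replicate 2 (-0.90, edgeR adjusted p = 0.0376). Over these factors 4 were called higher and 1 lower without IM 6h replicate 3, and 0 and 1 when replicate 1 of 18 h was left out. EPOR, the erythropoietin receptor and the 1 call among 14 cytokine receptors, measured 28.4, 34.6 and 50.7 CPM at 6 h and 63.8, 58.9 and 54.9 CPM at 18 h (edgeR log2 change 0.65, SE 0.20, adjusted p = 0.0487) and lost the call without any 1 of the libraries but IM 6h replicate 3, without which 3 genes of its list were called higher and 2 lower. Among 5 tested megakaryocyte markers TUBB1, the platelet β-tubulin, measured 47.2, 43.8 and 81.6 CPM at 6 h and 158, 119 and 124 CPM at 18 h (edgeR log2 change 1.22, SE 0.33, adjusted p = 0.025) and lost the call without IM 18h replicate 1 or either of IM 6h replicates 1 and 2. The 13 megakaryocyte markers summed to 49.7 to 90.5 CPM at 6 h and 129 to 167 CPM at 18 h, with PF4, PPBP, GP1BB and FLI1 at 0 in both groups, and ITGA2B, the defining integrin αIIb, at 2.85, 2.89 and 3.08 CPM at 6 h and 3.42, 3.05 and 2.92 CPM at 18 h.

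The largest falls under the same limits were ETV4, SLC2A3 and SCG3. ETV4 (chr17:43527844-43579620, minus strand), an ETS factor whose transcription follows ERK activity, measured 38.1, 23 and 20.7 CPM at 6 h and 5.27, 6 and 6.66 CPM at 18 h. The groups were far apart and the 18 h libraries lay close together. For ETV4 the log2 change was -2.19 (SE 0.19, edgeR adjusted p = 3.86e-07). SLC2A3 (chr12:7919230-7936275, minus strand), the glucose transporter GLUT3, measured 61.8, 9.63 and 15.6 CPM at 6 h and 7.17, 5.42 and 7.54 CPM at 18 h, where IM 6h replicate 1 stood above the other 6 h libraries. For SLC2A3 the log2 change was -2.12 (SE 0.48, edgeR adjusted p = 0.0109). SCG3, the granule protein secretogranin III (chr15:51681353-51721031, plus strand), measured 50.3, 63.1 and 32.2 CPM at 6 h and 11.8, 12.2 and 12.4 CPM at 18 h with no overlap. For SCG3 the log2 change was -2.0 (SE 0.26, edgeR adjusted p = 0.000112). PKM (chr15:72199029-72231822, minus strand), the pyruvate kinase of dividing cells, measured 400, 427 and 255 CPM at 6 h and 108, 95.7 and 166 CPM at 18 h. For PKM the log2 change was -1.55 (SE 0.17, edgeR adjusted p = 2.58e-05). PRKCB, protein kinase C β (chr16:23836001-24220611, plus strand), measured 512, 468 and 459 CPM at 6 h and 179, 177 and 165 CPM at 18 h, even at both times. For PRKCB the log2 change was -1.47 (SE 0.22, edgeR adjusted p = 0.000686). The other 5 were ECM1, an extracellular matrix protein, the Fc receptor FCGR2A, the calcium-binding proteins CALB1 and S100A11, and MLLT11, with log2 fold changes of -1.59, -1.57, -1.52, -1.47 and -1.5. ETV4, SCG3, ECM1, PKM, S100A11 and PRKCB were called whichever library was left out. SLC2A3, FCGR2A, CALB1 and MLLT11 lost the call without IM 18h replicate 1 (edgeR adjusted p = 0.0594, 0.139, 0.106 and 0.0757), and without IM 6h replicate 1 SLC2A3 was at -0.91, edgeR adjusted p = 0.14. FCGR2A and MLLT11 also lost it without IM 18h replicate 2 or IM 6h replicate 1, and CALB1 and MLLT11 without IM 6h replicate 2.

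STAT5 target genes gave no call after 6 h. Of 10 tested STAT5 target genes none was called between 6 and 18 h by edgeR or DESeq2, where edgeR called 4.41% of all genes tested. The median was -0.27, and 4 had an unadjusted p under 0.05, beside 4380 of all 18095 genes. At 6 h against CTRL 8 of the 10 were called lower, beside 4.12% of all genes tested, with a list median of -2.15. CISH, a STAT5-induced inhibitor of cytokine signalling, measured 58.7, 68.3 and 35 CPM in CTRL, and 8.1, 6.49 and 9.02 CPM at 6 h and 7.76, 8.37 and 6.77 CPM at 18 h. SOCS3, another such inhibitor, measured 27.6, 34 and 25.5 CPM in CTRL, and 4.1, 1.87 and 2.53 CPM at 6 h and 1.9, 1.95 and 2.59 CPM at 18 h. Both were low at 6 h and had overlapping groups thereafter. PIM1, a survival kinase, measured 77.5, 83.5 and 97.2 CPM at 6 h and 145, 126 and 97.2 CPM at 18 h, with 1 library of each time at the same level. For PIM1 the log2 change was 0.52 (SE 0.46, edgeR adjusted p = 0.542). BCL2L1, the anti-apoptotic BCL-XL, measured 35, 22.6 and 39.9 CPM at 6 h and 50.7, 43.3 and 41.7 CPM at 18 h, every 18 h library above every 6 h library, and was called when IM 6h replicate 3 was left out but in no other fit without 1 library. For BCL2L1 the log2 change was 0.48 (SE 0.18, edgeR adjusted p = 0.0979). The 6 h comparisons share the IM 6h libraries with the 18 h ones, and are given side by side for that reason.

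Among 11 tested genes that ERK signalling induces as feedback, 3 fell between 6 and 18 h, beside 1.93% of all genes tested. These were ETV4, ETV5 and SPRED1, and the median of the list was -0.29. At 6 h against CTRL 7 of the 11 were already called lower, beside 4.12% of all genes tested. SPRED1, an inhibitor of RAS signalling, measured 26.7, 12.6 and 15.6 CPM at 6 h and 8.52, 11.6 and 11.9 CPM at 18 h (edgeR log2 change -0.78, SE 0.22, adjusted p = 0.0273) and lost the call without IM 6h replicate 1 (-0.40, edgeR adjusted p = 0.316) or either of replicates 1 and 2 of 18 h. Without IM 18h replicate 1 or IM 6h replicate 1 the list had 1 call. SPRY2, a sprouty inhibitor, measured 4.1, 2.99 and 3.41 CPM at 6 h and 2.93, 3.74 and 2.7 CPM at 18 h with overlapping groups. For SPRY2 the log2 change was -0.17 (SE 0.20, edgeR adjusted p = 0.654). DUSP6, the ERK phosphatase, was at 0 to 0.163 CPM and too low to test. None of 17 tested immediate early genes was called by edgeR (3 had an unadjusted p under 0.05), and DESeq2 called 1 higher. EGR1, the best known of them, measured 40.9, 159 and 110 CPM in CTRL, and 10.6, 1.27 and 4.18 CPM at 6 h and 1.79, 1.68 and 1.38 CPM at 18 h, with the low 6 h library below all 18 h libraries. For EGR1 the log2 change was -1.75 (SE 0.86, edgeR adjusted p = 0.218). Of 10 genes of the MYC and MAX network, MXD4, a repressor that pairs with MAX, was the 1 call, at 14.8, 16.4 and 27.2 CPM at 6 h and 46.8, 33.7 and 32.2 CPM at 18 h (edgeR log2 change 0.95, SE 0.22, adjusted p = 0.01), and it did not pass without replicate 1 of 18 h (edgeR adjusted p = 0.0929) or replicate 1 or 2 of 6 h. MYC itself measured 277, 369 and 229 CPM in CTRL, and 143, 52.3 and 106 CPM at 6 h and 83.8, 97 and 112 CPM at 18 h, so that the 18 h libraries lay within the range of the 6 h libraries. For MYC the log2 change was -0.04 (SE 0.28, edgeR adjusted p = 0.958).

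All 30 genes of nucleolar ribosome biogenesis had log2 fold changes below 0, with a median of -0.49 and a range of -0.82 to -0.11, and 5 of them were called lower, NCL, NOLC1, PES1, RRP12 and TCOF1. IM 18h replicate 1 was the lowest 18 h library in 30 of the 30. PES1, pescadillo, a factor needed to mature the large ribosomal subunit, measured 94.9, 101 and 75.9 CPM at 6 h and 39.6, 60.2 and 55.8 CPM at 18 h, with no overlap. For PES1 the log2 change was -0.80 (SE 0.16, edgeR adjusted p = 0.00334). RRP12, an export factor of pre-ribosomes, measured 49.1, 54.5 and 33.2 CPM at 6 h and 20.8, 28.1 and 28.8 CPM at 18 h. For RRP12 the log2 change was -0.82 (SE 0.20, edgeR adjusted p = 0.0138). NOLC1, a nucleolar chaperone of snoRNPs (chr10:102152176-102163871, plus strand), measured 304, 299 and 223 CPM at 6 h and 134, 195 and 185 CPM at 18 h (edgeR log2 change -0.69, SE 0.17, adjusted p = 0.0141), and TCOF1, the treacle protein of rDNA transcription, 205, 221 and 147 CPM at 6 h and 105, 129 and 140 CPM at 18 h. For TCOF1 the log2 change was -0.62 (SE 0.19, edgeR adjusted p = 0.0456). In each of the 4 every 18 h library was below every 6 h library. Without IM 6h replicate 3 the list had 11 calls and a median of -0.55, and 1 call was left in each fit without replicate 1 or 2 of 6 h or replicate 1 of 18 h. The median of the list was between -0.35 and -0.56 in the fits that left out a library. At 6 h against CTRL, 19 of the 30 were called lower, beside 4.12% of all genes tested, with a list median of -0.79.

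Nucleotide and polyamine synthesis gave 3 falls and 1 rise among 21 genes, with a median of -0.23. SRM, the spermidine synthase (chr1:11054584-11060024, minus strand), measured 116, 153 and 75.7 CPM at 6 h and 45.7, 64.4 and 63.5 CPM at 18 h. For SRM the log2 change was -0.99 (SE 0.26, edgeR adjusted p = 0.023). ODC1, which makes the polyamine precursor putrescine, measured 611, 693 and 435 CPM at 6 h and 331, 361 and 358 CPM at 18 h (edgeR log2 change -0.73, SE 0.16, adjusted p = 0.00913), and ATIC, which completes inosine monophosphate, 351, 304 and 244 CPM at 6 h and 167, 187 and 203 CPM at 18 h. For ATIC the log2 change was -0.69 (SE 0.10, edgeR adjusted p = 0.000282). Every 18 h library was below every 6 h library in all 3. The list had 6 calls without IM 6h replicate 3 and 1 call without IM 18h replicate 1 or IM 6h replicate 2. Without IM 6h replicate 1 it had no call, and ATIC passed the p threshold but not the fold threshold (-0.57, edgeR adjusted p = 0.00832). Of 20 aminoacyl-tRNA synthetases, VARS1 (-0.63, edgeR adjusted p = 0.0122) and FARSB (-0.61, edgeR adjusted p = 0.00314) fell, which charge valine and phenylalanine. Both lost the call without replicate 1 or 2 of 6 h or replicate 1 of 18 h, where FARSB stood between -0.57 and -0.52 on the log2 scale.

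The E-box CACGTG, the letters that MYC and MAX bind, was in 10 of the 24 nucleolar genes with a promoter entry (41.7%), in 4 of 18 nucleotide and polyamine genes (22.2%) and in 7.43% of all 27305 promoters, read over the same window. Among genes that rose it was in 3 of 8 of the largest rises (37.5%) and in 3 of 11 haem synthesis genes (27.3%). The letters read the same on both strands. The promoters of PES1, SRM and LDHA are shown as those of a nucleolar, a polyamine and a glycolytic gene that fell, with the E-box in capitals (RefSeq, GRCh38.p14): PES1 at chr22:30591861-30592160 on the minus strand, SRM at chr1:11059969-11060268 on the minus strand and LDHA at chr11:18394313-18394612 on the plus strand.
PES1: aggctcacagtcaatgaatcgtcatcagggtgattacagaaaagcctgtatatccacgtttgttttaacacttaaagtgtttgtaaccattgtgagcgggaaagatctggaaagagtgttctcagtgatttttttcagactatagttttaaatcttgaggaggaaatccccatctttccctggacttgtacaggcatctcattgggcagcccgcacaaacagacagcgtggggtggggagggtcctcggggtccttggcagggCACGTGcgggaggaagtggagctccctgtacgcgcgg
SRM: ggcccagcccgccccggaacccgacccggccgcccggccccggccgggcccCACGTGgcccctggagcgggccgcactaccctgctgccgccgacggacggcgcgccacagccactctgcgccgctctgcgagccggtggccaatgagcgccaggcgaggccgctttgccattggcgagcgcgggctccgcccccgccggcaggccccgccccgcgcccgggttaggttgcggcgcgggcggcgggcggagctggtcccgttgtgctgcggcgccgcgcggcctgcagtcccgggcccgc
LDHA: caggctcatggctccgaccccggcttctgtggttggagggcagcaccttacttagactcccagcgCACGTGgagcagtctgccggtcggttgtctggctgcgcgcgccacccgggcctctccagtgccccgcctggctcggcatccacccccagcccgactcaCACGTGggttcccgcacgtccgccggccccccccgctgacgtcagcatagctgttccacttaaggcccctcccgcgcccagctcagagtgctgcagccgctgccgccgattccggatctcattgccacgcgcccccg
LDHA holds 2 matches and the others 1 each. These genes were picked as holding a match. The windows of PKM, ENO1 and ODC1, which also fell, held none, while that of ATIC held 2. The share over the glycolysis list was not counted. No E-box was found in the windows of the 19 membrane genes or of the 7 largest falls with an entry, which says only that these letters are not in those windows.

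Glucose transport and glycolysis gave 5 falls and 1 rise among 23 genes, with a median of -0.32. LDHA, the lactate dehydrogenase of fermenting cells (chr11:18394388-18408425, plus strand), measured 953, 1120 and 608 CPM at 6 h and 340, 445 and 502 CPM at 18 h, with IM 6h replicate 3 the lowest 6 h library and still above the 18 h libraries. For LDHA the log2 change was -1.06 (SE 0.19, edgeR adjusted p = 0.00225). ENO1, enolase (chr1:8861002-8879249, minus strand), measured 2180, 2350 and 1420 CPM at 6 h and 906, 1080 and 1160 CPM at 18 h. For ENO1 the log2 change was -0.92 (SE 0.13, edgeR adjusted p = 0.000364). With PKM, PGAM1 and SLC2A3 these made up the falls, so that the enzyme steps from 3-phosphoglycerate to lactate each had a gene called lower. SLC2A1, the glucose transporter GLUT1, was the rise, at 0.73 on the log2 scale. The calls were 7 lower and 1 higher without IM 6h replicate 3, and 3 lower without IM 18h replicate 1 or without IM 6h replicate 1. LDHA, ENO1 and PKM were called whichever library was left out. At 6 h against CTRL, 4 genes of the list were called lower and 3 higher, beside 4.12% and 5.82% of all genes tested. LDHA, ENO1 and PKM stood at -0.31, -0.26 and -0.43 there, none of them called.

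Of 31 nuclear-encoded genes of the respiratory chain, 28 had log2 fold changes below 0, with a median of -0.21, and 1 was called. There were 4 calls without IM 6h replicate 3 and 2 when replicate 1 of 18 h was left out, all lower. The gene called in the main fit was CYCS, cytochrome c (chr7:25120091-25125361, minus strand). It measured 534, 530 and 399 CPM at 6 h and 199, 265 and 234 CPM at 18 h, with no overlap (edgeR log2 change -1.07, SE 0.16, adjusted p = 0.000686). CYCS was called in each fit that left out a library. ATP5F1B, the catalytic β subunit of the ATP synthase, measured 1310, 1400 and 1090 CPM at 6 h and 987, 965 and 1040 CPM at 18 h. Its 18 h libraries were all below its 6 h libraries and it passed the p threshold but not the fold threshold. For ATP5F1B the log2 change was -0.34 (SE 0.08, edgeR adjusted p = 0.00865).

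**Figure D3:**
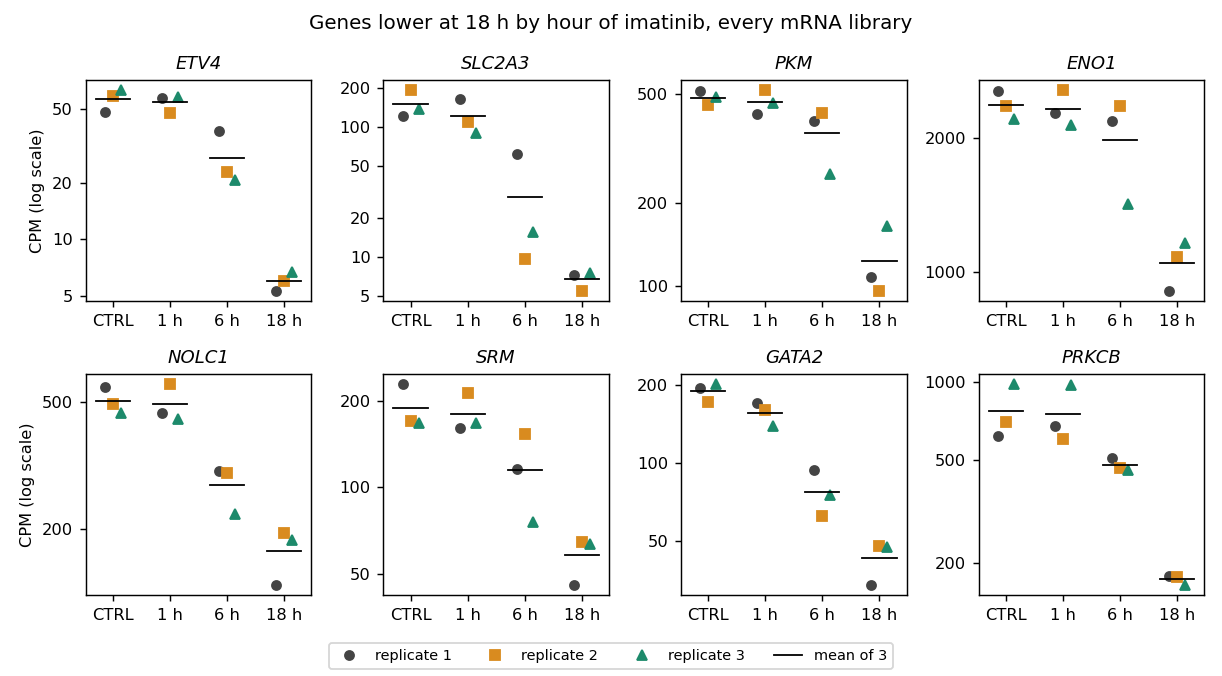
CPM in each mRNA library (y axis, log scale) of ETV4, SLC2A3, PKM, ENO1, NOLC1, SRM, GATA2 and PRKCB for CTRL and 1, 6 and 18 h of imatinib (x axis), 1 point per replicate and a bar at the mean of 3. In all 8 panels the 3 libraries at 18 h lie below the 3 at 6 h, for PRKCB at 165 to 179 CPM beside 459 to 512 CPM.

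None of 32 DNA replication genes and none of 30 genes of mitosis and the spindle was called at 18 h against 6 h by edgeR or DESeq2, with medians of -0.04 and -0.11. At an unadjusted p under 0.05 there were 9 and 7, beside 4380 of all 18095 genes tested. MKI67, the proliferation antigen, measured 631, 674 and 716 CPM at 6 h and 749, 669 and 714 CPM at 18 h (edgeR log2 change 0.08, SE 0.09, adjusted p = 0.669), and MCM2, a subunit of the replicative helicase, 185, 206 and 193 CPM at 6 h and 232, 227 and 212 CPM at 18 h. For MCM2 the log2 change was 0.20 (SE 0.12, edgeR adjusted p = 0.306). TOP2A, the topoisomerase of dividing cells, measured 1030, 874 and 1100 CPM at 6 h and 1140, 1010 and 1110 CPM at 18 h, with overlap. For TOP2A the log2 change was 0.12 (SE 0.14, edgeR adjusted p = 0.632). Of 20 G1 regulators, CCND2, cyclin D2, was the 1 call, at 78.8, 53.8 and 58.9 CPM at 6 h and 36.3, 38.4 and 40.9 CPM at 18 h, falling without overlap (edgeR log2 change -0.73, SE 0.14, adjusted p = 0.0024) and narrowly under the fold threshold without IM 6h replicate 1 (-0.55, edgeR adjusted p = 0.0391). CDKN1B, the inhibitor p27, was at -0.02 (edgeR adjusted p = 0.973) and CCND3, cyclin D3, at 0.41 (edgeR adjusted p = 0.334).

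In the BCL2 family 1 of 13 genes was called, the pro-apoptotic effector BAK1, which fell from 13.4, 16.2 and 13.4 CPM to 7.76, 6.37 and 9.02 CPM (edgeR log2 change -0.89, SE 0.16, adjusted p = 0.00195) and was called in each fit that left out a library. BCL2L11, the BH3-only protein BIM, measured 37.7, 53.8 and 67.7 CPM at 6 h and 57.8, 60.4 and 53.8 CPM at 18 h, where the 18 h libraries lay inside the 6 h range. For BCL2L11 the log2 change was 0.11 (SE 0.30, edgeR adjusted p = 0.864). MCL1, an anti-apoptotic member, measured 254, 198 and 201 CPM at 6 h and 183, 180 and 177 CPM at 18 h, each 18 h library below each 6 h library, with no call. For MCL1 the log2 change was -0.28 (SE 0.11, edgeR adjusted p = 0.11). No FOXO target or growth restraint gene was called by edgeR among 15, with a median of 0.30, while 5 had an unadjusted p under 0.05 and DESeq2 called 2 higher. TXNIP, a thioredoxin inhibitor that limits glucose uptake, measured 450, 226 and 558 CPM at 6 h and 914, 747 and 701 CPM at 18 h, not overlapping but spread at 6 h. For TXNIP the log2 change was 0.94 (SE 0.38, edgeR adjusted p = 0.135). BTG2, an anti-proliferative gene of that list, measured 38.9, 26.4 and 65.6 CPM at 6 h and 122, 65.1 and 63.1 CPM at 18 h (edgeR log2 change 0.94, SE 0.30, adjusted p = 0.0509) and was called without IM 6h replicate 3 (1.35, edgeR adjusted p = 0.005) and without replicate 3 of 18 h (1.10, edgeR adjusted p = 0.0451).

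Lysosome and autophagy genes gave 2 rises and 1 fall among 28, with a median of -0.02. TPP1, a lysosomal peptidase, measured 99.8, 134 and 139 CPM at 6 h and 206, 243 and 209 CPM at 18 h, with no overlap (edgeR log2 change 0.82, SE 0.14, adjusted p = 0.00176), and was called in each fit that left out a library. CTSL, cathepsin L, rose by 0.65 (edgeR adjusted p = 0.0368) and GLA, α-galactosidase, stood at -0.61 (edgeR adjusted p = 0.0053), both called no more without IM 18h replicate 1 or either of IM 6h replicates 1 and 2, and CTSL not without IM 18h replicate 2 or 3 either. Among 27 genes of cholesterol synthesis and uptake TM7SF2, a sterol reductase, was the 1 call, at 12.3, 13.8 and 14.2 CPM at 6 h and 21, 22.3 and 26.9 CPM at 18 h (edgeR log2 change 0.80, SE 0.16, adjusted p = 0.00314), and SQLE, the squalene epoxidase, was at 0.16 without a call. In 24 genes of ATF4 and amino acid stress none was called by edgeR or DESeq2 and none had an unadjusted p under 0.05, with a median of -0.04, and ATF4 itself had 6 h libraries as far apart as 131 and 322 CPM. Of 21 interferon and antigen presentation genes OAS3 was called higher (edgeR log2 change 1.27, SE 0.35, adjusted p = 0.0276), at 3.06, 2.99 and 7.59 CPM at 6 h and 14, 12.4 and 6.33 CPM at 18 h with overlapping groups, and lost the call without replicate 1 or 2 of either time. No replication-dependent histone gene was called by edgeR among 30, with a median of 0.48, while 9 had an unadjusted p under 0.05 and DESeq2 called 1 higher. Of 19 SR proteins and their kinases 1 was called, the splicing kinase CLK3 (edgeR log2 change 0.63, SE 0.15, adjusted p = 0.0139), which lost the call without replicate 1 or 2 of 6 h or replicate 1 of 18 h. SRSF1, the founding SR protein, was lower without overlap, at 384, 354 and 354 CPM at 6 h and 218, 252 and 261 CPM at 18 h, past the p threshold and just inside the fold threshold. For SRSF1 the log2 change was -0.58 (SE 0.12, edgeR adjusted p = 0.00354). It was called without replicate 3 of 18 h (-0.63, edgeR adjusted p = 0.00758), and also without replicate 2 of 18 h or replicate 3 of 6 h.

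Of 8 RNA processing genes that the study named, none was called at 18 h against 6 h by edgeR or DESeq2, and 2 had an unadjusted p under 0.05. The study described these genes against untreated cells, and partly by protein or splicing, which the mRNA levels here do not measure. GEMIN5, a subunit of the SMN complex, measured 172, 148 and 173 CPM in CTRL, and 71.6, 65.5 and 78.1 CPM at 6 h and 60.6, 70.2 and 86.2 CPM at 18 h. For GEMIN5 the log2 change was 0.01 (SE 0.16, edgeR adjusted p = 0.978). WDR43, a nucleolar protein, measured 248, 212 and 233 CPM in CTRL, and 97.2, 63.5 and 102 CPM at 6 h and 55.9, 93.4 and 85.2 CPM at 18 h. For WDR43 the log2 change was -0.17 (SE 0.17, edgeR adjusted p = 0.601). Both were called lower at 6 h than in CTRL, at -1.20 and -1.40 on the log2 scale, and the 6 h and 18 h libraries overlapped. SRPK1, an SR protein kinase, and RBM5, a splicing regulator, stood at -0.20 and 0.22 with edgeR adjusted p = 0.338 and 0.457. This list was picked by the study in part from the same libraries and is not independent evidence of a direction. In the 8 lists with no call by edgeR, leaving out 1 library gave at most 2 calls.

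**Figure D4:**
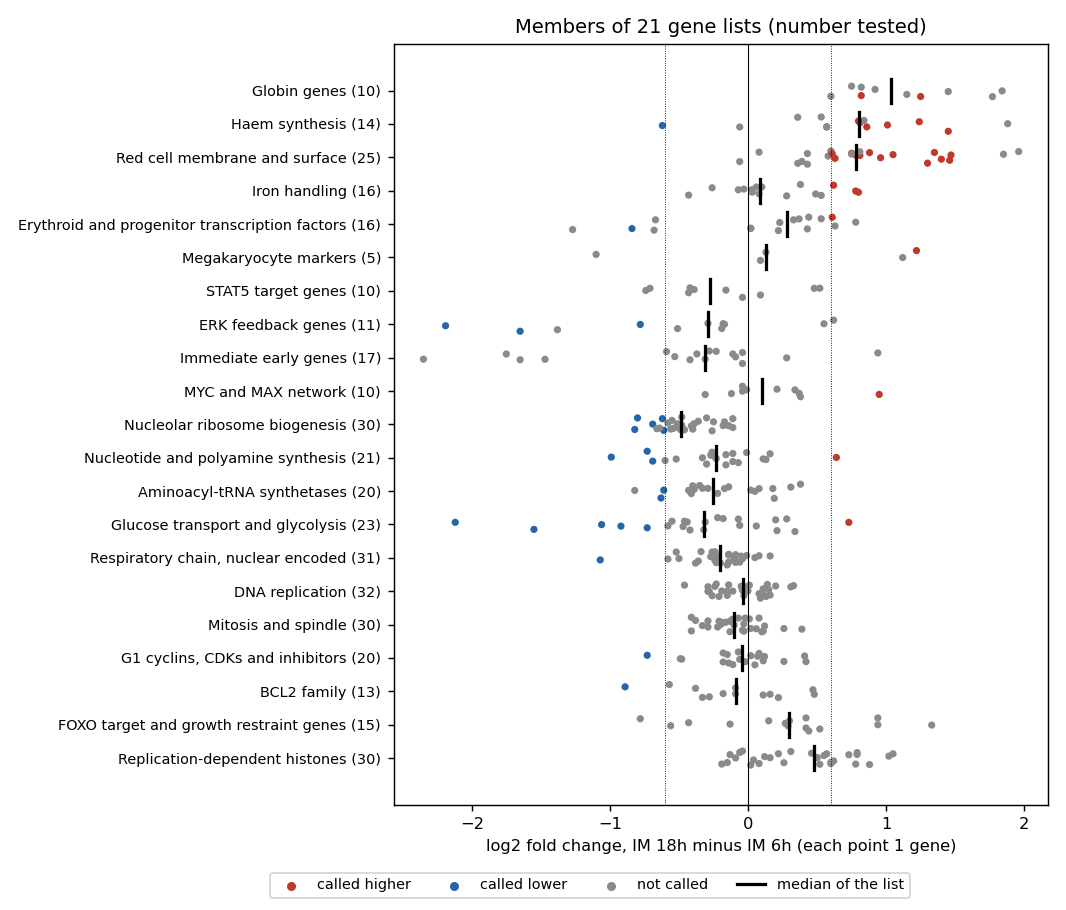
Log2 fold change of IM 18h over IM 6h (x axis) of every tested member of 21 gene lists (y axis), 1 point per gene with called genes coloured, a tick at each list's median and dotted lines at 0.6 in either direction. The medians of the globin, haem and red cell membrane lists lie at 1.04, 0.80 and 0.78, those of the nucleolar and glycolysis lists at -0.49 and -0.32, and those of DNA replication and mitosis near 0.

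Read beside the change from CTRL to 6 h, the late change took different courses. Over all genes tested 9.94% were called at 6 h against CTRL, 5.82% higher and 4.12% lower, and 30.5% at 18 h against CTRL, 17.2% higher and 13.2% lower. TSPAN32, CA1 and ARHGAP23 were called higher at both steps, TSPAN32 by 2.39 to 6 h and 2.06 from 6 to 18 h, CA1 by 1.81 and 2.01 and ARHGAP23 by 2.32 and 1.59 on the log2 scale. ETV4, SLC2A3 and FCGR2A fell at both steps, ETV4 fell by 1.05 and 2.19, SLC2A3 by 2.37 and 2.12 and FCGR2A by 1.64 and 1.57. HEPACAM2, ACSS1 and RELN were called at the second step only in these fits, at 0.34, 1.41 and 0.52 to 6 h, as were SCG3, ECM1 and PKM, at -0.24, -0.58 and -0.43. The late call of HEPACAM2 was lost whichever library was left out. That of ACSS1 was lost without replicate 1 or 3 of 18 h or replicate 1 or 2 of 6 h. Those of CA1, ARHGAP23, SLC2A3 and FCGR2A also depended on single libraries, as given above. SOSTDC1, a secreted BMP and WNT antagonist, turned back, at 0.66 to 6 h and -0.94 from 6 to 18 h. It measured 7.44, 10.1 and 8.19 CPM in CTRL, and 11.3, 18.9 and 10.5 CPM at 6 h and 5.27, 6.74 and 9.13 CPM at 18 h. Its late fall was lost without IM 18h replicate 1 (edgeR adjusted p = 0.0833) or IM 6h replicate 2 (edgeR adjusted p = 0.102). CYP3A5, a drug-metabolising cytochrome P450, rose from 1.93, 2.15 and 1.39 CPM in CTRL to 10.4, 14 and 28.9 CPM at 6 h and 61.4, 38.9 and 36.1 CPM at 18 h (edgeR log2 change 1.36, SE 0.29, adjusted p = 0.00633), and APOL4, an apolipoprotein L, fell from 15.5, 14.8 and 21 CPM to 1.38, 2.63 and 1.38 CPM at 6 h and 0.0543, 0.948 and 0.55 CPM at 18 h. For APOL4 the log2 change was -1.77 (SE 0.44, edgeR adjusted p = 0.0149). Both were called at both steps, and both lost the late call without IM 18h replicate 1 (edgeR adjusted p = 0.0699 and 0.0903) and without IM 6h replicate 2. CYP3A5 also lost it without IM 6h replicate 1.

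To ask whether the late change was shared by another compound over the same interval, the 18 h minus 6 h change of imatinib was set against that of JTE-607 in the same fit. Between 6 and 18 h of JTE-607, 1404 genes rose (7.76%) and 1027 fell (5.68%), 13.4% of the genes tested in all. Of the 448 genes that rose with imatinib 64 also rose with JTE-607, 14.3% of the imatinib rises and 4.56% of the JTE-607 rises, and 24 fell. Of the 350 that fell with imatinib 14 fell with JTE-607, 4.0% of these falls beside a background of 5.68%, and 58 rose, 16.6% beside a background of 7.76%. Leaving out 1 imatinib library, 11.7% to 22.9% of the rises also rose with JTE-607, and 11.3% to 19.2% of the falls rose with it. The change itself differed between the compounds in 2054 genes (11.4%), in 880 towards imatinib being higher (4.86%) and in 1174 towards it being lower (6.49%). With library totals in place of TMM the split was 547 and 1955, so the balance of directions depended on the scaling.

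Genes were named for the difference only where all IM 18h libraries lay beyond all IM 6h libraries in its direction. The direction of their imatinib change was thus set by this choice. Under this limit the largest positive differences were ADCY10P1, a pseudogene, CFAP70, a ciliary protein, MASP2, a complement protease, HBA2 and ARRDC4. For HBA2 the imatinib libraries measured 76, 73.3 and 141 CPM at 6 h and 365, 211 and 217 CPM at 18 h and the JTE-607 libraries 69.9, 57.4 and 26.6 CPM at 6 h and 23.6, 43.2 and 25.7 CPM at 18 h of JTE-607. The imatinib libraries were higher at 18 h and the JTE-607 libraries were not (difference of log2 changes 2.18, SE 0.66, edgeR adjusted p = 0.0326). CFAP70 measured 1.72, 1.52 and 3.69 CPM at 6 h and 5.05, 7.21 and 6.88 CPM at 18 h, beside 10.9, 13.1 and 15.1 CPM at 6 h and 3.9, 2.92 and 4.65 CPM at 18 h of JTE-607, in opposite directions (difference 3.24, SE 0.53, edgeR adjusted p = 0.000312). ARRDC4 had log2 changes of 1.49 and -0.63 (difference 2.12, SE 0.56, edgeR adjusted p = 0.0145). ADCY10P1 and MASP2 had differences of 3.58 and 2.37, with JTE-607 changes of -2.67 and -1.98, and neither was called with imatinib, nor was HBA2. The difference of HBA2 passed the test in 5 of the 12 fits that left out a library. The imatinib rise of CFAP70 lost its call without replicate 1 or 2 of 6 h or replicate 2 or 3 of 18 h.

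Under the same limit the largest negative differences were CFAP161, IGFBP4, SCG3, LPAR5 and IL16. SCG3 measured 80, 77.1 and 62.4 CPM at 6 h and 162, 261 and 163 CPM at 18 h of JTE-607, a rise where imatinib gave a fall (difference -3.42, SE 0.35, edgeR adjusted p = 5.23e-06). IGFBP4, which binds insulin-like growth factors, measured 16.1, 10.2 and 10.1 CPM at 6 h and 4.34, 4.63 and 5.12 CPM at 18 h, beside 15, 11.9 and 13.9 CPM at 6 h and 54.4, 56.6 and 60.4 CPM at 18 h of JTE-607 (difference -3.44, SE 0.45, edgeR adjusted p = 3.47e-05). The imatinib fall of IGFBP4 lost its call without replicate 1 of either time (edgeR adjusted p = 0.105 and 0.0781 for 6 and 18 h). CFAP161, a ciliary protein, was low at 8.75, 2.23 and 4.57 CPM at 6 h and 0.923, 0.421 and 0.99 CPM at 18 h and had log2 changes of -2.74 and 1.26 (difference -4.0, SE 0.67, edgeR adjusted p = 0.000437). LPAR5, a lysophosphatidic acid receptor, and IL16, a chemoattractant cytokine, had differences of -2.91 and -2.75. LPAR5 was not called with imatinib. The imatinib fall of IL16 lost its call without replicate 1 of either time (edgeR adjusted p = 0.103 and 0.0866 for 6 and 18 h). ETV4, PKM and LDHA also differed, with JTE-607 changes of 0.20, 0.22 and -0.24 beside imatinib changes of -2.19, -1.55 and -1.06 (edgeR adjusted p = 5.23e-06, 5.26e-05 and 0.0451 for the difference). That of LDHA lost its call in 9 of the 12 fits that left out a library, at -0.68 (edgeR adjusted p = 0.128) without IM 18h replicate 1.

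By list, the difference was called in 10 red cell membrane genes towards imatinib being higher and 1 towards it being lower among 25. It was called in 5 and 0 of 10 globin genes, in 3 and 1 of 14 haem genes and in 4 and 0 of 16 iron genes. Over all genes tested the shares were 4.86% towards imatinib being higher and 6.49% towards it being lower. TFRC had changes of 0.80 and -0.60 (difference 1.40, SE 0.26, edgeR adjusted p = 0.00122). Without IM 6h replicate 3 the differences towards imatinib being higher were 15 membrane, 8 globin, 6 haem and 4 iron genes, and without IM 18h replicate 1 they were 4, 1, 0 and 1. Over all 12 fits that left out a library the range was 4 to 15, 1 to 8, 0 to 6 and 1 to 4. Glycolysis had 5 differences towards imatinib being lower among 23 and nucleolar ribosome biogenesis 3 among 30, each with none the other way. The nucleolar count was near the 6.49% of all genes tested. The counts were 6 and 4 without IM 6h replicate 3 and 2 and 1 when replicate 1 of 18 h was left out, with at most 1 the other way. DMTN and TSPAN32 rose with both compounds, DMTN by 1.40 and 1.55 and TSPAN32 by 2.06 and 2.99, and the difference was not called for either (edgeR adjusted p = 0.851 and 0.41). Among 30 histone genes 12 rose and 1 fell with JTE-607 over these hours, beside 7.76% and 5.68% of all genes tested, and none was called with imatinib. The median was 0.73 with JTE-607 and 0.48 with imatinib, where 24 of the 30 were above 0. The difference was called in 3, towards imatinib being lower, beside 11.4% of all genes in either direction.

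**Figure D5:**
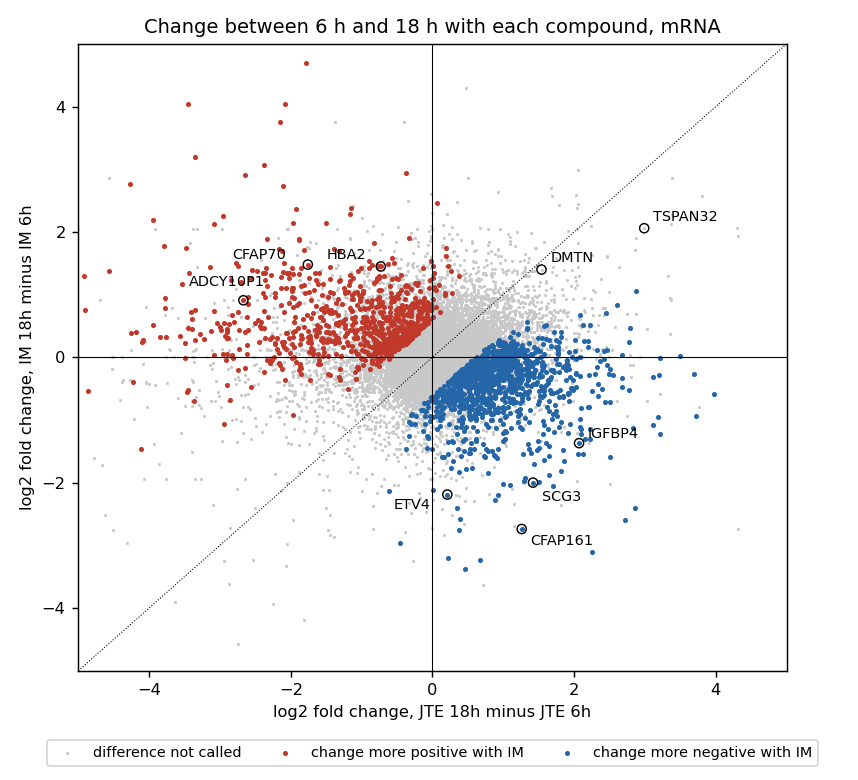
Log2 fold change from 6 to 18 h of imatinib (y axis) against that of JTE-607 (x axis) in mRNA, 1 point per gene tested, with genes whose change differed between the compounds coloured and a dotted line where both changes are equal. Both axes run to 5 in either direction and 48 genes lie outside; SCG3 and IGFBP4 lie where imatinib fell and JTE-607 rose, and DMTN and TSPAN32 where both rose.

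The nuclear RNA gave a comparison over libraries that the mRNA did not share, though over a longer interval, from 1 to 18 h of imatinib. In it 6863 of 21929 genes were called (31.3%), 3694 higher (16.8%) and 3169 lower (14.5%). Of 442 late mRNA rises tested in both, 409 were called higher in the nucleus (92.5%, which is 13.9% of the nuclear rises) and none lower, where 17.6% of all genes tested in both were called higher. Of 336 late mRNA falls 302 were called lower (89.9%, and 10.5% of the nuclear falls) and 2 higher, where 17.3% of all were called lower. Leaving out 1 mRNA library, the shares were 86.9% to 96.9% of the rises and 85.5% to 97.7% of the falls. The nuclear log2 fold changes had medians of 1.52 over the rises and -1.31 over the falls. SLC4A1, ALAS2 and HBZ, which were not called in the mRNA, were called higher in nuclear RNA at 6.85, 4.11 and 2.67. In nuclear RNA 21 of 25 red cell membrane genes, 11 of 14 haem genes and 9 of 9 globin genes were called higher and none lower, and 30 of 30 nucleolar genes and 11 of 23 glycolysis genes were called lower, with 0 nucleolar and 3 glycolysis genes called higher. TFRC was at 0.44 in nuclear RNA and not called there. GATA1 and MKI67 were near 0 in both RNA fractions, at -0.06 and -0.01 in the nucleus, and GATA2 fell in both, at -1.83 in the nucleus. The intervals and the RNA differ, and so the sizes of the changes are not compared.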

How the data were processed

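Poly(A) mRNA of whole K562 cells was measured in 27 libraries and nuclear RNA in 15. The authors removed duplicate reads with FASTP, aligned pairs with STAR 2.7.7a to the human genome (GRCh38.p14 per the labels), kept unique alignments and deposited counts of read pairs per gene over exons from Subread featureCounts 2.0.3. With no strand setting stated, reads of a gene and its antisense partner cannot be told apart, and reads shared by close copies were not counted. The tables held 58243 gene IDs, of which 57532 were found in GENCODE 44 and 41836 had a gene symbol, and no count column lacked a sample.

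From these counts, genes passing filterByExpr (18095 in mRNA, 21929 in nuclear RNA) were fitted with edgeR 4.0.16 (R 4.3.3, TMM, robust quasi-likelihood), with 1 term for each of 9 mRNA or 5 nuclear groups, those of KCl included. The study used DESeq2, which stands here as an alternative (DESeq2 1.42.0). A call needed an adjusted p (Benjamini-Hochberg) below 0.05 and a change of more than 0.6 on the log2 scale. Precision was limited by 3 replicates per group, whose libraries differed by 5.98 to 26.3 times the counting noise (chi-square per gene). Their depth was 17578358 to 22054838 counts. Depth counted as well, since thinning to the smallest library gave 664 calls among 17726 genes, beside 798 among 18095. Alternatives were other fold thresholds, DESeq2, other size factors, other low-count filters, a replicate block, only the compared groups, thinning to the smallest library, leaving out genes over 1% of counts and leaving out each library in turn.

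The gene lists and their members were chosen with earlier results of these data known, while the libraries compared were chosen by their labels. The text names the 10 largest rises and falls among called genes at 10 CPM or more without overlap between the groups. It also names up to 4 called members of each list (or, with fewer than 2 calls, its 2 most abundant members). A set of key genes is named whatever their values, and 5 genes in each direction for the difference between compounds. For these last, all IM 18h libraries had to lie beyond all IM 6h libraries in the direction of the difference. Same-numbered IM 6h and JTE 6h libraries deviated together (r = 0.421, 0.57 and 0.405 over genes), whereas IM 6h and IM 18h libraries did not. For JTE 6h and JTE 18h the values were 0.197, 0.326 and 0.112. Replicate 3 of JTE 18h was no closer to its own number than to replicate 1 of JTE 6h (0.119). Promoters were those of RefSeq on GRCh38.p14, and 97 of the 135 genes so chosen had an entry. A few of the chosen genes are not reported here.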

Additional observations from a re-analysis of the deposited data

Results flagged for a closer look

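The change from 6 to 18 h differed between imatinib and JTE-607 in 2054 of 18095 genes by edgeR's test of the interaction (11.4%), and it was picked out because the same interval gave different effects under 2 compounds. Imatinib had the higher change in 880 of these genes and the lower change in 1174. The doses and the targets of the compounds differ, and their part in the difference was not tested. SCG3 and IGFBP4 fell with imatinib and rose with JTE-607, with differences of -3.42 and -3.44 on the log2 scale. CFAP70 rose with imatinib and fell with JTE-607, with a difference of 3.24. The direction of the imatinib change in these genes was set by how they were chosen. The imatinib change lost its call without replicate 1 of either time for IGFBP4, and without replicate 1 or 2 of 6 h or 2 or 3 of 18 h for CFAP70, while the 3 differences were called in each fit that left out a library. Single libraries were not tested as outliers in groups of 3.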

How the results depend on the processing

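The 798 calls at 18 h against 6 h became 1510 with no fold threshold, 346 beyond a log2 fold change of 1, 1213 with no low-count filter and 419 at a mean CPM of 10 or more, and ran from 182 to 1474 when 1 library was left out. DESeq2 gave 920, DESeq2-type size factors 804, the compared groups alone 686 (6 instead of 13 of the membrane genes and 2 instead of 6 of the haem genes higher), thinning 664 and the removal of genes over 1% of counts 801. With the replicate number as a block there were 1368 calls, and 337 with the block and only the groups compared. Same-numbered IM 18h and IM 6h libraries had correlations of -0.087, 0.248 and -0.299, and not every library correlated best with its own number. The highest value, 0.399, was between IM 18h replicate 1 and IM 6h replicate 3, the libraries that stood apart. With 3 libraries per group these values cannot settle whether same-numbered libraries shared a culture. The 2054 differences between compounds became 1274 beyond a log2 fold change of 1 and 1070 at a mean CPM of 10 or more, with 1423 to 2504 when 1 library was left out and 2952 with the replicate block. The 2431 calls of JTE-607 became 3938 with no fold threshold, 1487 beyond 1 and 790 at a mean CPM of 10 or more, with 1909 to 2590 when 1 library was left out. Those of nuclear RNA, 6863, became 3921 beyond 1 and 2733 at a mean CPM of 10 or more, with 6084 to 6905 when 1 library was left out. With library totals in place of TMM, 48.8% of the calls at 18 h against 6 h were higher instead of 56.1%, 21.9% instead of 42.8% of the differences and 73.3% instead of 57.8% of the JTE-607 calls. Of 66 called named genes, 14 were called under each of their 15 or 16 alternatives and 44 lost the call without 1 library, none changed sign, and 11 uncalled ones were called without IM 6h replicate 3.

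Sign changes were seen in 18 named genes, none of them called. Leaving out 1 library, their log2 fold changes ran as follows: MCM7 -0.098 to 0.02, CDK6 -0.06 to 0.136, BCL2L11 -0.085 to 0.319, FASN -0.203 to 0.072, ATF4 -0.047 to 0.586, B2M -0.054 to 0.006, H1-2 -0.199 to 0.085, CD14 -0.941 to 1.104, GATA1 -0.062 to 0.062, MYC -0.346 to 0.308, MXD1 -0.133 to 0.104, CISH -0.16 to 0.057, CDKN1B -0.079 to 0.058, GEMIN5 -0.137 to 0.122, WDR43 -0.349 to 0.024, KIT -0.568 to 0.279, ASNS -0.099 to 1.02. At a mean CPM of 10 or more they were MCM7 0.014, FASN 0, B2M 0.026, ATP5F1A 0.009, MYC 0.008, MXD1 0.012, CISH 0.006, CDKN1B 0.032, with library totals GATA1 -0.008, GEMIN5 -0.01, with no low-count filter GATA1 -0.024, GEMIN5 -0.026, with the block MYC 0.013 and with the block and only the groups compared MYC 0.062, GEMIN5 -0.003. The cause of these changes was not tested. At this depth HMOX1 and DUSP6 could not be tested.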
